A study of Mus musculus with 12 samples.

Results

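Translation initiation and elongation factors were measured in alveolar epithelial type 2 cells (AEC2), the lung cells that make and secrete surfactant. The genes were chosen by name: protein-coding mouse genes whose symbol begins with Eif or Eef and a digit, without the eIF2 kinases (Eif2ak) and the eIF4E-binding proteins (Eif4ebp). The annotation holds 61 such genes, and 57 of them had a value among the 16080 genes of the files. Eef1akmt3, Eef1akmt4, Eif2s3y and Eif4e1b were not analysed here.

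AEC2 came from female Bl6 mice at postnatal day 56 that carried 1 of 3 genotypes of surfactant protein C (SP-C, gene Sftpc): C185G, the mutant, C185Gneo, a control the series calls hypomorphic, and WT. There were 4 RNA-seq libraries per genotype. All 3 genotypes carry the same treatment label, intraperitoneal tamoxifen at 200 mg per kg on 2 days with cells collected on day 7, and the labels name no Cre driver. Libraries were grouped by the genotype field. The titles of the C185Gneo libraries read C185G, and those of the C185G libraries carry another code, so grouping by title could exchange these genotypes. Whether the 4 libraries of a genotype are 4 animals is not stated, and p-values measure only the spread among the libraries, part or all of which may be technical.

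Protein synthesis starts when eIF2, loaded with GTP and the initiator tRNA, joins the small ribosomal subunit with eIF1, eIF1A, eIF3 and eIF5, while the eIF4 factors bind the mRNA cap and unwind the leader. eIF2B reloads eIF2 with GTP, and this step is blocked when stress kinases such as PERK phosphorylate the alpha subunit of eIF2. In elongation eEF1A delivers aminoacyl-tRNAs, the eEF1B subunits recharge it, and eEF2 moves the ribosome along. AEC2 translate large amounts of secretory protein at the endoplasmic reticulum, where the SP-C precursor is folded as well.

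Depth and purity were checked first. Totals were 15659512 to 23444287 counts per library. Levels below are normalized CPM, counts scaled to a common library total with the authors' factors. Of the members, 56 of 57 had at least 10 counts in every library, Eef1a2 being the exception, and 55 had a mean of at least 5 CPM. Sftpc stood at 2471 to 3059 CPM in C185G, at 772.4 to 1079 CPM in C185Gneo and at 7211 to 7674 CPM in WT. The 10 AEC2 markers examined were all measured, at a summed 14110 to 16900 CPM in C185G, 30190 to 34240 CPM in C185Gneo and 33550 to 39360 CPM in WT, and in C185G 10 of 10 fell against WT, while 9 fell and Sftpc rose against C185Gneo. The 6 alveolar type 1 markers summed to 1338 to 1518 CPM in C185G, 1466 to 1675 CPM in C185Gneo and 1432 to 1770 CPM in WT, and the 4 club and goblet markers to 4502 to 5086 CPM in C185G, 5489 to 6888 CPM in C185Gneo and 5270 to 7190 CPM in WT. In C185G, 1 type 1 marker was higher and 1 lower against either control, and 2 of 4 club and goblet markers were lower against WT and 3 of 4 against C185Gneo. The 4 ciliated markers summed to 590.4 to 903.7 CPM in C185G, 698.5 to 936.5 CPM in C185Gneo and 806.2 to 1094 CPM in WT, with 2 lower in C185G against either control. The 6 mesenchymal markers summed to 494.9 to 676.5 CPM in C185G, 124.6 to 372.3 CPM in C185Gneo and 309.2 to 472.7 CPM in WT, with 6 of 6 higher in C185G than in C185Gneo and 1 of 6 higher than in WT. The 6 endothelial markers summed to 109.3 to 131.8 CPM in C185G, 133.2 to 215.3 CPM in C185Gneo and 151.6 to 236.6 CPM in WT, and 5 of 6 were lower in C185G against either control. For leukocytes, 4 of 6 markers were measured (Cd3e and Marco were not analysed here), at 45.54 to 63.92 CPM in C185G, 33.79 to 43.58 CPM in C185Gneo and 33.84 to 51.37 CPM in WT, and 1 was higher in C185G against each control. The part of these marker levels in the results below was not tested.

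Most translation factor genes were higher in C185G. Against WT, 41 of 57 were higher, 3 were lower and 13 were not called (adjusted p under 0.05 by limma, with Benjamini-Hochberg adjustment over all 16080 genes). Among all genes 27.3% were higher and 27.8% lower, and among the 11619 genes with a mean of at least 5 CPM 31.0% were higher. Against C185Gneo, 40 of 57 were higher and 4 lower, where all genes gave 29.2% higher and 28.7% lower and the genes of at least 5 CPM gave 32.5% higher. The median log2 change of the 57 genes was 0.32 against WT and 0.31 against C185Gneo, beside medians of -0.0004 and 0.0038 over all genes. Where 2 changes or p-values of a gene stand together below, the first is against WT and the second against C185Gneo.

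Few of the changes were large. Of the 57 genes, 2 rose by more than 1 on the log2 scale against WT (Eif5a2 and Eif6) and 2 fell by more than 1 (Eef1a2 and Eif4a2). Large changes were few among all genes too, where 851 of 16080 rose and 1067 fell by more than 1. Yet the 4 C185G libraries lay above all 4 WT libraries for 38 genes and below them for 3, where 25.2% and 23.5% of all genes did so. Against C185Gneo the counts were 37 and 4, with 25.7% and 24.2% of all genes. The comparisons with WT and C185Gneo share the C185G libraries, so their counts are not independent: 40 genes were called higher and 3 lower in both, and 12 were called in neither (70.2%, 5.26% and 21.1% of the 57). Of all 16080 genes, 24.4% were called higher in both, 24.8% lower in both and 36.4% in neither.

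The 2 control genotypes were close to each other. In C185Gneo against WT none of the 57 genes was called higher and none lower, where 0.249% and 0.292% of all genes were. At an unadjusted p under 0.05 in limma, 4 of 57 differed, against 9.54% of all genes. C185Gneo libraries lay above all WT libraries for 6 genes and below for 2, with 3.57% and 3.29% of all genes. The median log2 change was -0.0024.

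As a share of all counts, the 57 genes took 1.49 to 1.62% in C185G libraries, 1.29 to 1.35% in C185Gneo and 1.29 to 1.32% in WT. Eef1a1 and Eef2 alone made up 33.54 to 36.3% of these counts in C185G, 36.55 to 37.77% in C185Gneo and 36.05 to 36.82% in WT. Without that pair, the summed level was 9491 to 10150 CPM in C185G, 8191 to 8572 CPM in C185Gneo and 8367 to 8542 CPM in WT. All C185G libraries lay above all control libraries, and the WT range lay within that of C185Gneo.

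**Figure D1:**
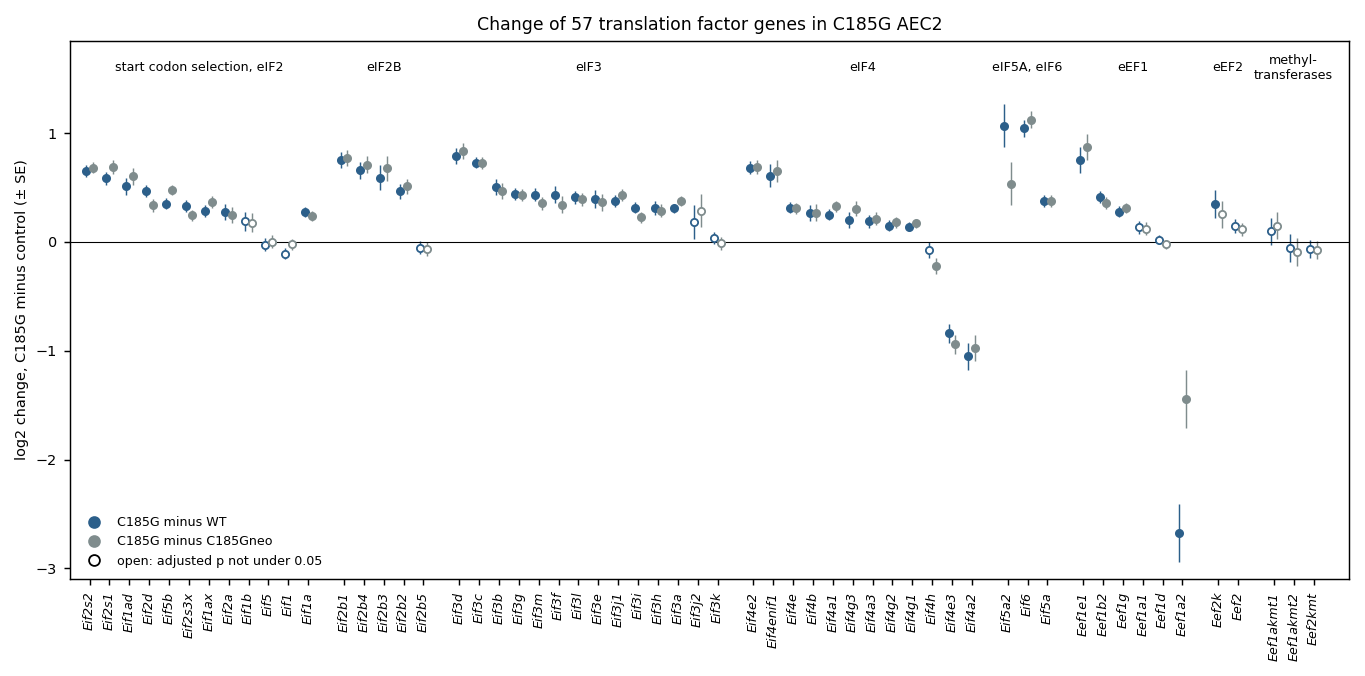
Log2 change of each of the 57 genes, grouped by role, in C185G minus WT (blue) and C185G minus C185Gneo (grey), with bars of 1 SE; filled points have an adjusted p under 0.05 and open points do not. Most points of every initiation factor group lie above 0, and Eef1a2, Eif4a2 and Eif4e3 stand below it in both comparisons.

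The start codon group, which carries the initiator tRNA to the start codon, had 8 of 11 measured genes higher in C185G against either control, with median log2 changes of 0.33 and 0.34. Eif2s1 encodes eIF2 alpha, the subunit that stress kinases phosphorylate. It had 64.12, 66.26, 59.36 and 58.52 CPM in C185G, 38.36, 36.12, 38.49 and 41.04 CPM in C185Gneo and 40.27, 39.77, 41.29 and 44.13 CPM in WT. No C185G library overlapped a control: the log2 change was 0.58 against WT (SE 0.0616, adjusted p = 3.16e-06) and 0.69 against C185Gneo (adjusted p = 5.87e-07). Eif2s2, the beta subunit, averaged 145.6 ± 9.138 CPM in C185G, 90.59 ± 4.041 CPM in C185Gneo and 92.45 ± 0.7675 CPM in WT (SD, n = 4 each), a change of 0.65 against WT and 0.68 against C185Gneo.

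Eif2s3x, the gamma subunit, averaged 53.94 ± 3.303 CPM in C185G, 45.47 ± 0.5158 CPM in C185Gneo and 42.93 ± 1.19 CPM in WT, and its log2 change was 0.33 against WT (adjusted p = 1.63e-04) and 0.24 against C185Gneo. The ratio of Eif2s2 to Eif2s3x was 2.64 to 2.734 in C185G, 1.875 to 2.081 in C185Gneo and 2.107 to 2.212 in WT, so that messages for the 3 subunits of one complex did not move by one factor. The gene shares 34.6% of its 50-base stretches with other annotated genes, mostly Gm2223, and how such reads were counted is not given in the sources used here.

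Eif5b, the GTPase that joins the ribosomal subunits, rose by 0.35 against WT and 0.48 against C185Gneo, at 192.4 to 198.8 CPM in C185G, 133.9 to 147.9 CPM in C185Gneo and 147.2 to 158.3 CPM in WT. Eif1ax and Eif1ad, of the eIF1A family, rose by 0.29 and 0.51 against WT and by 0.37 and 0.60 against C185Gneo. Genes on the other strand overlap 16.8% of the Eif5b exon bases (Rev1) and 15.3% of those of Eif1ad (Banf1). Eif2a and Eif2d, which encode other factors that can deliver the initiator tRNA, rose by 0.28 and 0.47 against WT. Eif1, Eif1b and Eif5, which guard start codon choice or trigger GTP hydrolysis by eIF2, were not called in either comparison. The calls of Eif1b rested on the setting: its changes of 0.19 and 0.18 (adjusted p = 0.0816 and 0.101) passed with library totals as the scaling (0.0198 and 0.0331), against WT without WT replicate 3 (0.0467) and against C185Gneo without C185Gneo replicate 3 (0.0424). Eif5 averaged 569.5 ± 37.19 CPM in C185G, 567.4 ± 13.91 CPM in C185Gneo and 578.6 ± 30.27 CPM in WT, and Eif1 averaged 558.6 ± 26.9 CPM in C185G, 566.5 ± 25.93 CPM in C185Gneo and 602.0 ± 13.11 CPM in WT.

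Of the eIF2B subunits, 4 of 5 were higher in C185G in both comparisons, with medians of 0.59 against WT and 0.68 against C185Gneo over the 5. Eif2b1, the alpha subunit of the regulatory part, had 33.12, 34.5, 34.77 and 38.75 CPM in C185G, 22.07, 18.5, 20.76 and 21.07 CPM in C185Gneo and 20.59, 20.71, 19.89 and 22.25 CPM in WT. Every C185G library exceeded every control library, with changes of 0.76 (SE 0.074, adjusted p = 1.57e-06) and 0.78 (adjusted p = 1.08e-06). Eif2b4, the delta subunit, had 42.75, 42.98, 47.04 and 48.79 CPM in C185G, 28.18, 25.17, 30.04 and 27.69 CPM in C185Gneo and 26.83, 26.59, 31.88 and 29.58 CPM in WT. It rose by 0.66 and 0.71. Eif2b2 (beta) rose by 0.47 and 0.51 and Eif2b3 (gamma) by 0.59 and 0.68.

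Eif2b5 encodes the epsilon subunit, which holds the catalytic domain of nucleotide exchange, and it was the eIF2B subunit not called. It had 54.59, 58.53, 53.47 and 49.96 CPM in C185G, 58.03, 57.9, 55.09 and 55.15 CPM in C185Gneo and 57.26, 52.62, 59.96 and 54.92 CPM in WT. The groups overlapped, and the log2 change was -0.05 against WT (SE 0.0599, adjusted p = 0.462) and -0.06 against C185Gneo (adjusted p = 0.372). The ratio of Eif2b1 to Eif2b5 counts was 0.5895 to 0.7756 in C185G, 0.3196 to 0.3821 in C185Gneo and 0.3318 to 0.4052 in WT.

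**Figure D2:**
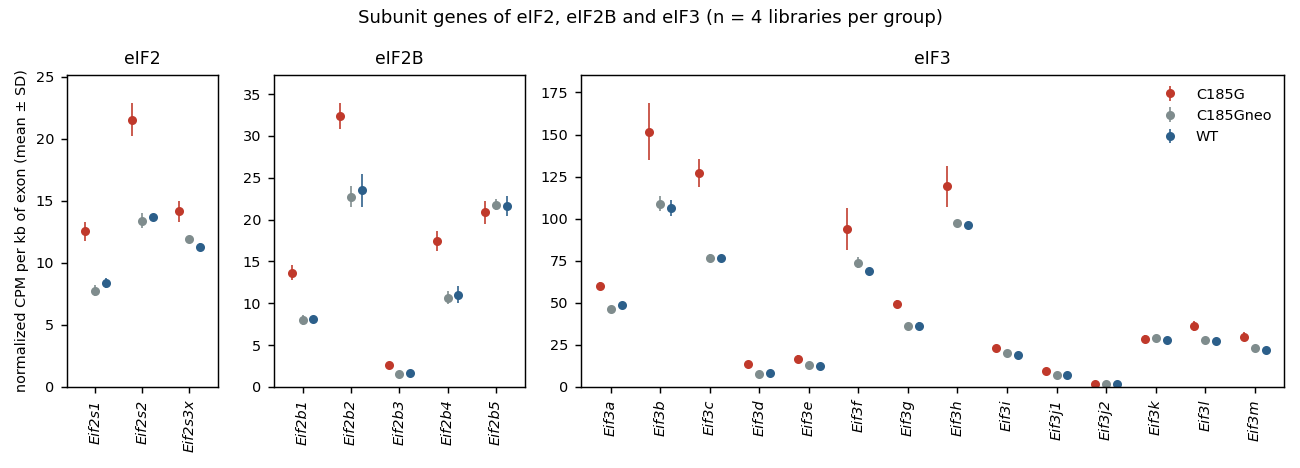
Mean level of the eIF2, eIF2B and eIF3 subunit genes in normalized CPM per kilobase of merged exon, on a linear axis for each complex, for C185G, C185Gneo and WT, with bars of 1 SD (n = 4 libraries). The C185G mean lies above both controls for most subunits, while Eif2b5 and Eif3k lie together in all 3 groups.

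eIF3 is the large scaffold that holds the small ribosomal subunit ready for mRNA. Of its 14 measured genes 12 were higher in C185G and none lower, in both comparisons, with medians of 0.40 and 0.37. Eif3d, whose protein can itself bind the cap of some mRNAs, changed most, with 63.2, 68.12, 71.02 and 73.06 CPM in C185G, 37.98, 39.12, 35.16 and 41.8 CPM in C185Gneo and 38.67, 40.39, 43.97 and 36.36 CPM in WT. Its log2 change was 0.79 against WT (SE 0.0733, adjusted p = 9.39e-07) and 0.84 against C185Gneo (adjusted p = 4.7e-07). Of the Eif3d exon bases, 43.3% overlap Gm17638 on the other strand, and the strand setting of the counting is not given in the sources used here.

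Eif3c, a core subunit, had 410.0, 434.0, 467.3 and 474.3 CPM in C185G, 276.4, 273.6, 256.9 and 270.2 CPM in C185Gneo and 268.1, 266.0, 273.4 and 267.1 CPM in WT. It rose by 0.73 in both comparisons (SE 0.0521, adjusted p = 8.38e-08 against WT). Eif3a, the largest subunit, rose by 0.31 against WT and 0.38 against C185Gneo, at 499.3 to 542.4 CPM in C185G, 386.6 to 410.8 CPM in C185Gneo and 411.8 to 436.5 CPM in WT. The other core and peripheral subunits called (Eif3b, Eif3e, Eif3f, Eif3g, Eif3h, Eif3i, Eif3l and Eif3m) rose by 0.31 to 0.51 against WT and by 0.23 to 0.47 against C185Gneo.

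Within eIF3 the exceptions were Eif3k and Eif3j2. Eif3k, a peripheral subunit, averaged 77.67 ± 5.545 CPM in C185G, 78.29 ± 2.916 CPM in C185Gneo and 75.65 ± 3.274 CPM in WT. Eif3l, whose protein pairs with that of Eif3k, did rise, by 0.41 (adjusted p = 6.33e-05) and 0.39 (adjusted p = 8.5e-05). Eif3j1 and Eif3j2 both encode the loosely bound j subunit, and 91.8% of the 50-base stretches of Eif3j2 also occur in other genes, nearly all in Eif3j1. Eif3j1 was called higher, by 0.38 and 0.43. Eif3j2 was not, except against C185Gneo without C185Gneo replicate 4 (adjusted p = 0.0368), but how reads were divided within this pair cannot be told.

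The eIF4 group, which binds the cap and unwinds the leader, held opposite changes. Of 12 measured genes, 9 were higher and 2 lower in C185G against WT, and 9 were higher and 3 lower against C185Gneo. The helicase eIF4A is encoded by the paralogs Eif4a1 and Eif4a2. Eif4a1 had 439.9, 449.2, 471.1 and 471.7 CPM in C185G, 361.8, 357.2, 350.9 and 389.4 CPM in C185Gneo and 405.5, 371.5, 389.9 and 371.7 CPM in WT. Every C185G library was above every control, a log2 change of 0.25 against WT (SE 0.0509, adjusted p = 8.45e-04) and 0.33 against C185Gneo (adjusted p = 9.08e-05).

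Eif4a2 went the other way. It had 311.4, 219.9, 220.6 and 182.1 CPM in C185G, 472.3, 442.3, 440.3 and 445.4 CPM in C185Gneo and 501.5, 501.1, 469.3 and 431.2 CPM in WT. All C185G libraries were below all controls, and the gene fell by 1.05 on the log2 scale against WT (SE 0.122, adjusted p = 1.23e-05) and by 0.97 against C185Gneo (adjusted p = 2.15e-05). Of the counts of the pair, Eif4a2 therefore took 41.45, 32.86, 31.89 and 27.86% in C185G, 56.63, 55.32, 55.65 and 53.35% in C185Gneo and 55.29, 57.43, 54.62 and 53.7% in WT. Their summed level was lower too, at 653.8 to 751.3 CPM in C185G, 791.3 to 834.8 CPM in C185Gneo and 802.9 to 907.0 CPM in WT. Per kilobase of merged exon, Eif4a1 and Eif4a2 had levels of 88.75 ± 3.776 and 89.13 ± 6.246 CPM in WT (SD, n = 4), and of 105.7 ± 3.677 and 43.74 ± 10.29 CPM in C185G. Both genes share stretches with other annotated genes, 28.4% for Eif4a1 (mostly the pseudogene Eif4a-ps4) and 10.6% for Eif4a2. Exons of other genes, Rfc4 among them, also cover 13.3% of the Eif4a2 exon bases and 6.62% of those of Eif4a1.

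The 250 bases before the annotated start of each paralog are shown because the pair moved in opposite directions; both are written on the gene's own strand, from RefSeq on GRCm38.p6, with Eif4a1 at chr11:69672424-69672673 (minus strand) and Eif4a2 at chr16:23107218-23107467 (plus strand). Capitals mark a match to any of the motifs searched, which were the ETS, E-box, CARE and antioxidant response letters spelled out with the other promoters. Eif4a1 held the E-box letters CACGTG, and none of the letters were found in Eif4a2.
Eif4a1: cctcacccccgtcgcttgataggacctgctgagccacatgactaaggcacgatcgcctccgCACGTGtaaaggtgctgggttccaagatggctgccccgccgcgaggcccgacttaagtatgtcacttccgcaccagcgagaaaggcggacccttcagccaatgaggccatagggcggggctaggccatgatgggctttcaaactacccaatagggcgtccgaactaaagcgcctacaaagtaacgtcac
Eif4a2: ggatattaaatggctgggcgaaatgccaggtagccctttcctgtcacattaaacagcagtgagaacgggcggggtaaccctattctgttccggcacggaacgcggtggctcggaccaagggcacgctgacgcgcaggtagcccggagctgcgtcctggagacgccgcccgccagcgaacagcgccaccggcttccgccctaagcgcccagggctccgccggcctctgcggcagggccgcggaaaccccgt

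The cap-binding genes also split. Eif4e, the main cap-binding protein, had 100.5, 98.2, 93.42 and 90.61 CPM in C185G, 73.73, 76.57, 78.23 and 80.46 CPM in C185Gneo and 77.57, 78.58, 73.11 and 78.15 CPM in WT, a rise of 0.32 and 0.31 (adjusted p = 1.3e-04 and 1.47e-04). Eif4e2, the homolog known to repress translation of its targets, had 72.93, 78.55, 83.56 and 90.73 CPM in C185G, 50.12, 48.23, 52.17 and 50.62 CPM in C185Gneo and 51.25, 49.39, 49.54 and 51.9 CPM in WT. It rose by 0.68 against WT (SE 0.0632, adjusted p = 9.08e-07) and by 0.69 against C185Gneo.

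Eif4e3, the remaining family member, fell. It had 15.25, 12.81, 12.54 and 11.4 CPM in C185G, 26.6, 24.56, 24.81 and 23.51 CPM in C185Gneo and 22.2, 22.86, 24.52 and 22.99 CPM in WT, with log2 changes of -0.84 (SE 0.0865, adjusted p = 2.61e-06) and -0.94 (adjusted p = 7.55e-07). Of the Eif4e3 exon bases, 14.8% overlap Gm20696 on the same strand, and how such reads were counted is not given. Eif4e3 made up 5.912 to 8.081% of the counts of the 3 genes in C185G, 15.21 to 17.68% in C185Gneo and 14.7 to 16.66% in WT. Eif4e2 made up 38.66 to 47.08% in C185G, 32.29 to 33.61% in C185Gneo and 32.75 to 33.94% in WT. Their sum was 188.7 to 192.7 CPM in C185G, 149.4 to 155.2 CPM in C185Gneo and 147.2 to 153.0 CPM in WT.

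**Figure D3:**
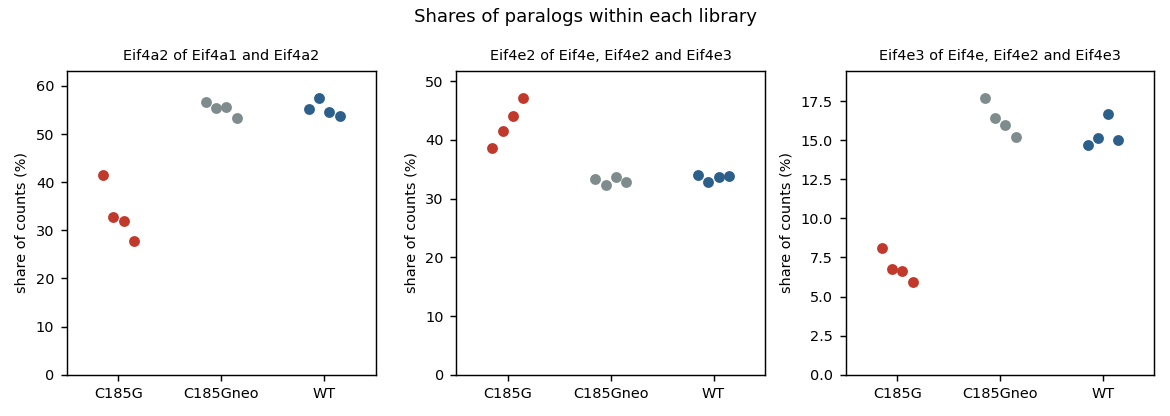
Share of counts, in percent, of Eif4a2 among Eif4a1 and Eif4a2, of Eif4e2 among the 3 cap-binding genes and of Eif4e3 among the same 3, one point per library, with C185G left of C185Gneo and WT. The 4 C185G points stand apart from all 8 control points in each panel, and C185G replicate 1 is the nearest to them.

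The eIF4G scaffolds, which bridge the cap complex and eIF3, rose by small amounts. Eif4g1 had 580.0, 595.4, 583.7 and 610.9 CPM in C185G, 520.6, 515.1, 539.4 and 530.5 CPM in C185Gneo and 533.5, 534.8, 547.9 and 534.0 CPM in WT, a log2 change of 0.14 (adjusted p = 0.0112) and 0.17 (adjusted p = 0.00318). Eif4g2 and Eif4g3 rose by 0.15 and 0.20 against WT and by 0.18 and 0.31 against C185Gneo. Their calls against WT depended on single libraries: the adjusted p of Eif4g2 was 0.0592 without C185G replicate 3, 0.0684 without C185G replicate 4, and 0.0516, 0.0572 and 0.0657 without WT replicates 2, 3 and 4. That of Eif4g3 was 0.0628 and 0.0906 without C185G replicates 3 and 4, and 0.0652 and 0.0802 without WT replicates 1 and 2.

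Among the other eIF4 genes, Eif4enif1, which encodes the eIF4E transporter of the nucleus and P-bodies, had 86.12 to 129.2 CPM in C185G, 62.57 to 72.28 CPM in C185Gneo and 66.48 to 73.11 CPM in WT, a change of 0.61 (adjusted p = 2.42e-04) and 0.65. Eif4b, a helper of the helicase, rose by 0.27 in both. Eif4a3, the helicase of the exon junction complex, rose by 0.19 and 0.21; without WT replicate 2 its adjusted p against WT was 0.0579. Eif4h, another helper of the helicase, had 554.8, 597.8, 617.6 and 610.6 CPM in C185G, 631.5, 632.4, 786.5 and 733.5 CPM in C185Gneo and 621.7, 604.4, 660.0 and 620.3 CPM in WT. It fell by 0.22 against C185Gneo (adjusted p = 0.0171 by limma). The call was lost without C185Gneo replicate 3 (adjusted p = 0.0614), with library totals as the scaling (0.064) and with quantile normalization (0.0796). Against WT the change of Eif4h was -0.07 (adjusted p = 0.394).

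**Figure D4:**
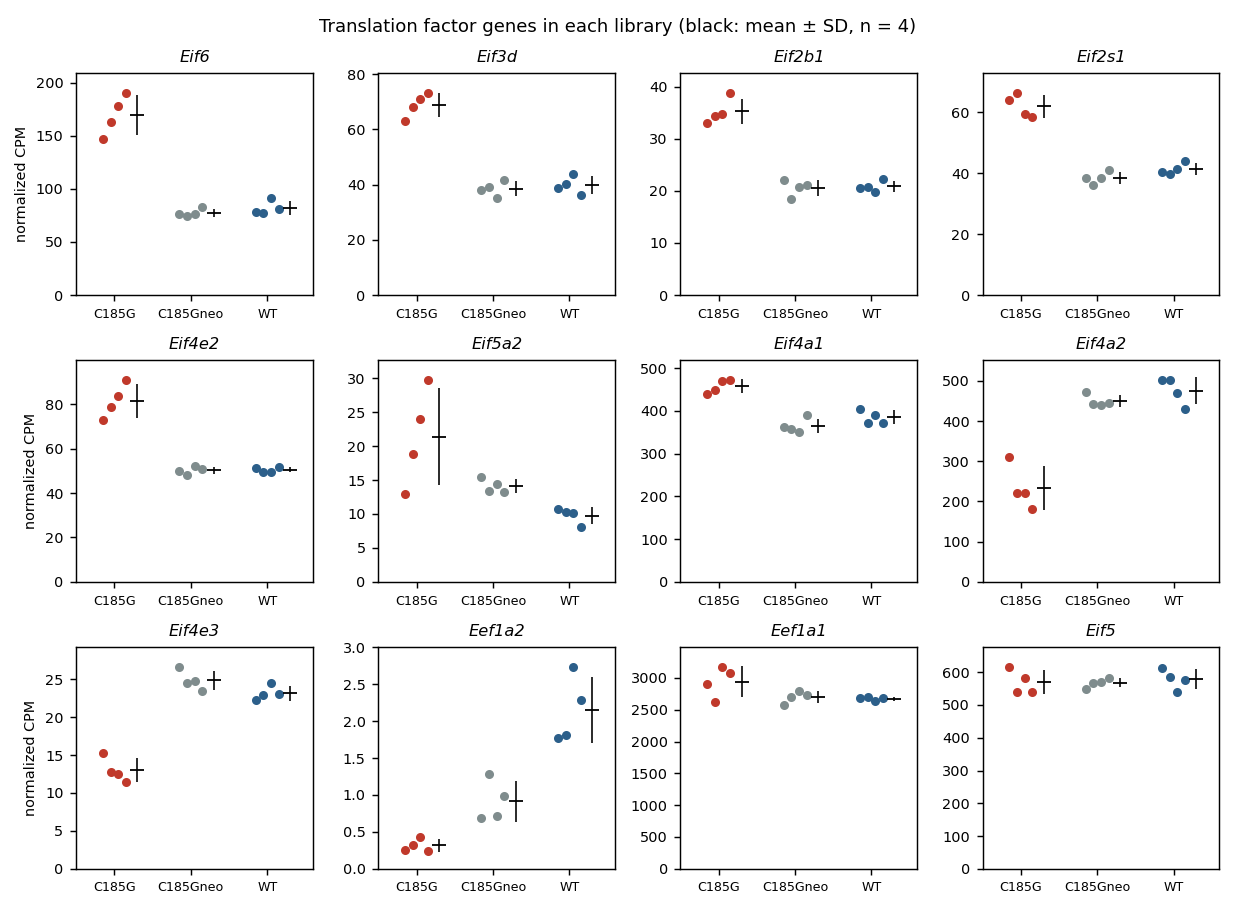
Normalized CPM of 12 selected genes in every library, with C185G left of C185Gneo and WT; points are libraries, replicates 1 to 4 from left to right, and the black bars give the group mean ± SD. C185G points lie above the controls for Eif6 and Eif3d, below them for Eif4a2, Eif4e3 and Eef1a2, and among them for Eif5.

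eIF5A eases peptide bond formation at difficult sequences, and eIF6 keeps free large ribosomal subunits from joining; all 3 genes of this group rose against both controls. Eif6 had 146.6, 163.2, 178.4 and 190.0 CPM in C185G, 76.12, 74.63, 76.44 and 82.96 CPM in C185Gneo and 78.26, 77.11, 91.11 and 81.42 CPM in WT. The log2 change was 1.04 against WT (SE 0.0782, adjusted p = 1.29e-07) and 1.12 against C185Gneo (adjusted p = 5.52e-08), the largest rise of the 57 genes against C185Gneo. Eif5a averaged 336.6 ± 18.67 CPM in C185G, 259.0 ± 5.733 CPM in C185Gneo and 259.5 ± 15.09 CPM in WT, and rose by 0.38 in both.

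Eif5a2, the paralog known for narrow expression in normal tissue, was far less abundant and varied more. It had 12.98, 18.81, 23.98 and 29.69 CPM in C185G, 15.4, 13.34, 14.4 and 13.29 CPM in C185Gneo and 10.7, 10.3, 10.09 and 8.013 CPM in WT. Against WT no library overlapped and the log2 change was 1.07 (SE 0.198, adjusted p = 5.28e-04). Against C185Gneo the groups overlapped through C185G replicate 1, and the change of 0.54 (adjusted p = 0.0339) lost its call in 7 of 17 alternatives, with an adjusted p of 0.0925 and 0.101 without C185G replicates 3 and 4, and of 0.0735, 0.0581 and 0.0722 without C185Gneo replicates 2, 3 and 4. C185Gneo libraries in turn all lay above the WT libraries, by 0.53 (adjusted p = 0.389).

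Eef1a1 and Eef2, which carry out elongation itself, were the most abundant members. Per kilobase of merged exon, Eef1a1 stood at 1180 ± 96.84 CPM in C185G, 1081 ± 37.98 CPM in C185Gneo and 1072 ± 11.51 CPM in WT, and Eef2 at 733.2 ± 57.57 CPM in C185G, 676.0 ± 29.87 CPM in C185Gneo and 660.7 ± 5.055 CPM in WT (SD, n = 4 each). The next, Eif1, stood at 266.2 ± 12.82 CPM per kilobase in C185G and at 286.9 ± 6.249 CPM per kilobase in WT. These 3 genes held the same ranks in C185G and WT.

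Eef1a1 had 2908, 2619, 3170 and 3074 CPM in C185G, 2568, 2693, 2794 and 2728 CPM in C185Gneo and 2684, 2698, 2632 and 2681 CPM in WT. C185G replicate 2 was below every WT library and the other C185G libraries were above them, and the log2 change of 0.13 against WT was not called (SE 0.0615, adjusted p = 0.0778). Eef2 had 2440, 2170, 2612 and 2526 CPM in C185G, 2249, 2147, 2382 and 2210 CPM in C185Gneo and 2210, 2206, 2172 and 2196 CPM in WT, a change of 0.15 (adjusted p = 0.0558).

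Both calls depended on the processing and on 1 library. Without C185G replicate 2 the change was 0.19 for Eef1a1 (adjusted p = 0.0128) and 0.20 for Eef2 (adjusted p = 0.0088). With library totals as the scaling the changes were 0.21 and 0.23, and with quantile normalization 0.83 and 0.46, all of them called. Eef2 against WT also passed with voom weights (adjusted p = 0.047). Against C185Gneo both genes passed under the 3 settings given for the pair. Of Eef1a1, 39.4% of the 50-base stretches occur in other genes, spread over 20 of them, and its reads may be split.

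The genes of the eEF1B exchange factor split. Eef1b2 had 247.6, 227.3, 278.9 and 266.8 CPM in C185G, 194.5, 198.4, 198.4 and 203.1 CPM in C185Gneo and 189.2, 190.9, 193.4 and 190.6 CPM in WT, and rose by 0.41 and 0.36. Eef1g rose by 0.28 and 0.31, although 44.2% of its stretches are shared, mostly with Gm4366. Eef1d was not called, with 92.66 to 98.33 CPM in C185G, 93.64 to 99.4 CPM in C185Gneo and 93.56 to 95.05 CPM in WT (log2 change 0.02 against WT, SE 0.0423, adjusted p = 0.713).

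Eef1e1, whose protein is a scaffold of the multi-tRNA synthetase complex, had 14.22, 11.36, 11.34 and 14.23 CPM in C185G, 6.372, 7.113, 6.187 and 8.185 CPM in C185Gneo and 6.864, 7.864, 8.136 and 7.335 CPM in WT. It rose by 0.75 (SE 0.121, adjusted p = 1.33e-04) and 0.87 (adjusted p = 3.31e-05). Eef2k, the kinase that inhibits eEF2, had 24.36 to 31.66 CPM in C185G, 19.89 to 25.34 CPM in C185Gneo and 17.85 to 26.56 CPM in WT. Its change of 0.35 against WT (adjusted p = 0.0324) was not called without C185G replicates 2 or 4 (0.0936 and 0.0912) or without WT replicates 1 or 2 (0.108 and 0.0679), and the 0.25 against C185Gneo was not called (adjusted p = 0.103) but passed without C185G replicate 1 (0.0482).

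Eef1a2, the eEF1A paralog known from neurons and muscle, was near the limit of detection. It had 5, 7, 8 and 4 counts in C185G, 16, 23, 12 and 17 in C185Gneo and 31, 32, 49 and 37 in WT. All C185G libraries were below all C185Gneo libraries, and those below all WT libraries, with log2 changes of -2.67 against WT (SE 0.269, adjusted p = 2.07e-06) and -1.44 against C185Gneo (adjusted p = 4.31e-04). For C185Gneo against WT the change was -1.23 (adjusted p = 0.0693), which passed with voom weights (adjusted p = 0.0314) and with 5 added to the counts (0.0397). It was the least abundant of the 57 genes in all 3 groups, at 0.1519 CPM per kilobase in C185G and 1.031 in WT. In bulk RNA, fewer cells of a type that holds a transcript and less of it per cell cannot be told apart.

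The methyltransferases of elongation factors, Eef1akmt1, Eef1akmt2 and Eef2kmt, were not called in any comparison, with log2 changes of -0.06 to 0.10 against WT and -0.09 to 0.15 against C185Gneo. Eif1a, an autosomal gene of the eIF1A family apart from the roles above, rose by 0.27 and 0.24, at 132.0 to 141.0 CPM in C185G, 112.4 to 116.2 CPM in C185Gneo and 106.7 to 119.6 CPM in WT.

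Libraries of the mutant differed among themselves more than the controls did. The median coefficient of variation over the 57 genes was 6.72% in C185G, 4.66% in C185Gneo and 4.33% in WT. For the 43 genes called in the same direction against both controls, C185G replicate 1 was the mutant library nearest to the WT mean in 24 and C185G replicate 4 the farthest in 25. Without C185G replicate 1 the genes called higher numbered 41 against WT and 41 against C185Gneo, and without C185G replicate 4 they numbered 38 and 39.

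Windows of 250 bases before to 50 bases after the gene start, from RefSeq on GRCm38.p6, were matched for 45 of the 57 genes and searched on both strands. A gene with several annotated starts had a window for each and counted once if any of them matched. Such genes had more chances to match. The ETS-family letters CCGGAAGT, an element common in promoters of housekeeping genes, occurred in 8 of 45 genes (17.8%). The share was 9.35% in the 9018 measured genes with a window and a mean of at least 5 CPM. Of all 27025 genes with a window, 4.31% held the letters. Of the 45 genes with a window, 32 were called higher against both controls. All 8 genes with the letters were among these 32, and none of the 13 others held the letters. Other patterns were searched as well, and a link between the letters and the rise was not tested. The 12 genes without a window, Eif6 and Eif4e3 among them, could not be searched. The 8 genes with the letters are shown because all of them rose, a choice made from these data. The 30 bases around the match nearest to the start are given on each gene's strand, with the match in capitals. ACTTCCGG is the same motif read on the other strand. Eif5a had several annotated starts, and only its window at chr11:69920581-69920880 held the letters.
Eif2b2, chr12:85219486-85219515, plus strand: cctctctcggcCCGGAAGTgaaacagtgct
Eif2b4, chr5:31193120-31193149, minus strand: cccagtgcacgCCGGAAGTtgtagtccgct
Eif3d, chr15:77970877-77970906, minus strand: agctgtgacacACTTCCGGttgtgtctcac
Eif3l, chr15:79075176-79075205, plus strand: ggctgggcgggACTTCCGGtccggccaagc
Eif4e2, chr1:87213905-87213934, plus strand: tcgccagccaaCCGGAAGTagccgggccct
Eif5a, chr11:69920667-69920696, minus strand: cagccgtagcaCCGGAAGTgttccccattg
Eif5a2, chr3:28781230-28781259, plus strand: cggggcctatcCCGGAAGTgtggtcgcggc
Eef1b2, chr1:63176821-63176850, plus strand: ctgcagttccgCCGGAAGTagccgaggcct

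In these windows the matches began between 71 bases before the start (Eif3d) and base 17 of the transcript (Eif2b2), and Eif5a2 held 2. The E-box CACGTG, bound by MYC and related factors, was in 12 of 45 genes (26.7%). It was in 12% of the measured genes of at least 5 CPM and in 8.09% of all. It was in 7 of the 32 genes called higher against both controls (21.9%) and in 5 of the 13 others (38.5%). The antioxidant response letters TGACNNNGC were in 10 of 45 genes (22.2%, beside 17.2% and 14% of the same sets). The letters TGATGNAAN of the CARE motif bound by ATF4 were in 2 (4.44%; 2.68% and 4.5%), Eif2s3x and Eef2k. A start at C followed by at least 4 pyrimidines is a feature of messages controlled by mTOR. It was found at the annotated start of 2 of 45 genes, Eif2s3x and Eif3f (4.44%, beside 3.04% and 3.01%). Only the annotated first base was examined, so a start annotated a base away would be missed. The starts used in these cells were not measured, so the other genes cannot be said to lack this feature. ETS, E-box and antioxidant letters can lie in one window, as in Eif5a2. Eif5a held each of these patterns too, but not all of them in the same window. A match is a stretch of letters, and binding was not measured.

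Genes that regulate or extend the same machinery were listed as neighbours, and all 55 were measured. Against WT 21 were higher (38.2%) and 8 lower, with a median log2 change of 0.15, beside 27.3% higher and 27.8% lower among all genes. Against C185Gneo 23 were higher (41.8%) and 10 lower, with a median of 0.14, beside 29.2% and 28.7% of all genes. None was called in C185Gneo against WT by limma, with 1 at an unadjusted p under 0.05. Eif4ebp1, the repressor that holds eIF4E off its scaffold, averaged 52.88 ± 4.653 CPM in C185G, 17.94 ± 3.221 CPM in C185Gneo and 20.92 ± 2.261 CPM in WT, a rise of 1.34 (adjusted p = 8.86e-07) and 1.57 (adjusted p = 1.65e-07).

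Ribosome rescue and termination genes were among those that rose. Pelo, which splits stalled ribosomes, averaged 28.56 ± 3.158 CPM in C185G, 13.04 ± 0.5536 CPM in C185Gneo and 12.89 ± 1.789 CPM in WT (log2 changes 1.15 and 1.12). Its partner Hbs1l rose by 0.20 and 0.21, and Abce1, which recycles ribosomes, by 0.44 and 0.47. Gspt1, the eRF3 of termination, rose by 0.44 and 0.46, while Etf1, its partner eRF1, was not called (0.05 and 0.03, adjusted p = 0.381 and 0.623). Pabpc1, the poly(A)-binding protein that joins eIF4G, rose by 0.37 and 0.43.

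Dhps and Dohh make the hypusine of eIF5A in successive steps. Dhps rose by 0.45 and 0.47, and Dohh was not called (0.17 and 0.17, adjusted p = 0.0685 and 0.0671). Rptor and Rheb, of the mTOR complex 1 pathway, rose by 0.58 and 0.26 against WT. The genes of its inhibitory complex moved in opposite directions: Tsc1 rose by 0.21 in both comparisons (adjusted p = 0.0246 and 0.0225), and Tsc2 fell by 0.19 and 0.27. Mtor itself (-0.04 and -0.06) and the S6 kinase gene Rps6kb2 (0.21 and 0.15) were not called, and Rps6kb1 was called against C185Gneo alone (0.05 and 0.14, adjusted p = 0.423 and 0.0449). Of 8 mitochondrial factors, 3 were higher against WT (37.5%, beside 27.3% of all genes) and 4 of 8 against C185Gneo (beside 29.2% of all genes), shares of very few genes. Gfm1, a mitochondrial elongation factor, had the largest rise of the 8, at 66.27 ± 7.616 CPM in C185G, 32.06 ± 1.825 CPM in C185Gneo and 33.07 ± 2.221 CPM in WT.

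Of the 4 kinases of eIF2 alpha, Eif2ak2 (PKR) was called higher against WT alone (0.34, adjusted p = 0.0305; 0.25 against C185Gneo, adjusted p = 0.0928), and Eif2ak1 (HRI) was not called. Eif2ak3 (PERK) averaged 64.36 ± 2.238 CPM in C185G, 64.66 ± 7.192 CPM in C185Gneo and 65.7 ± 5.78 CPM in WT and was not called. Eif2ak4 (GCN2) fell by 0.52 against WT (adjusted p = 2.06e-05) and by 0.63 against C185Gneo (adjusted p = 3.56e-06). Ppp1r15a, which directs dephosphorylation of eIF2 alpha, averaged 447.6 ± 45.5 CPM in C185G, 613.2 ± 46.62 CPM in C185Gneo and 581.5 ± 48.64 CPM in WT, and fell by 0.38 and 0.46.

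Also lower in both comparisons were Paip1, a partner of the poly(A)-binding protein that helps initiation (-0.47 and -0.41), and Paip2, an inhibitor of the same protein (-0.35 and -0.34). The helicase genes Ddx3x (-0.34 and -0.31) and Dhx29 (-0.32 and -0.25), which act on structured leaders, were lower as well. Pdcd4, an inhibitor of eIF4A, fell by 0.49 against WT (adjusted p = 0.0115), and its change of -0.29 against C185Gneo was not called (adjusted p = 0.106).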

How the data were processed

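RNA-seq of 12 AEC2 libraries was analysed. Per the labels' protocols, lungs were digested with Dispase and DNase, mesenchymal cells were removed by adherence and CD45+ cells by beads. STAR, limma and mm10 stand, without versions, in the submitters' processing notes; counting tool, annotation and strand are not given in the sources used. The deposited values are log2 of a count plus 0.5 times 1 factor per library, by the authors. Whole counts were recovered from their spacing (100% of values within 1e-06 of a whole number); totals differed by at most 1.08 times after scaling. Changes are relative to the bulk of genes.

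Symbols and exons came from GENCODE release 21 (GRCm38), which named 16017 of 16080 identifiers. All libraries entered 1 limma 3.58.1 fit in R 4.3.3 (lmFit, eBayes with trend and robust), 1 coefficient per genotype, no covariates, no filter; the threshold for a call was an adjusted p (Benjamini-Hochberg, all genes) under 0.05. The fit was tested on simulated data with far fewer changed genes than were called in C185G, so error rates here were not measured. Members, roles, neighbours, markers and motifs were chosen with earlier results of these data known. Named genes were the 8 largest non-overlapping changes per direction (4 for C185Gneo against WT) and listed key factors and paralogs. Alternatives were other scalings, voom weights, 5 added to the counts, no trend, a 5 CPM minimum, only the 8 libraries compared, the replicate block and each library left out. Figures used Python 3.11.15 and matplotlib 3.10.9.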

Additional observations from a re-analysis of the deposited data

Results flagged for a closer look

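In 5 of the 171 sets of 4 libraries (57 genes in 3 genotypes), 1 library stood farther from the other 3 than Dixon's 95% criterion allows; chance alone gives about 1 in 20. C185Gneo replicate 4 was low for Eef1g, at 181.5 CPM where the others had 193.7 to 194.6 CPM, and high for Eif3j1, at 44.99 CPM where the others had 39.69 to 40.45 CPM. C185Gneo replicate 1 was high for Eif4a2, at 472.3 CPM where the others had 440.3 to 445.4 CPM. WT replicate 4 was low for Eif2d, at 36.43 CPM (others 39.09 to 39.53 CPM), and WT replicate 3 was high for Eif4g1, at 547.9 CPM (others 533.5 to 534.8 CPM). None of the C185G libraries was singled out for any of the 57 genes.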

How the results depend on the processing

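Over 17 alternatives per comparison, the genes called higher in C185G numbered 37 to 44 against WT and 39 to 43 against C185Gneo, and those called lower 2 to 3 and 3 to 4. Leaving out 1 library gave 37 to 42 higher against WT and 39 to 42 against C185Gneo. Of the genes called, 37 of 41 higher and 3 of 3 lower against WT, and 39 of 40 higher and 3 of 4 lower against C185Gneo, kept the call in every alternative that held them. In C185Gneo against WT, 1 gene was called lower with voom weights and 1 with 5 added to the counts, Eef1a2 both times; the cause was not tested. Changes near 0 turned sign without a call: Eif2b5 against WT was 0.0258 with library totals, and Eif1 against C185Gneo was 0.074 with quantile normalization, 0.0431 with library totals, and -0.0467 to 0.0094 over the libraries left out in turn, above 0 without C185G replicate 2 (0.0094) and without C185Gneo replicate 4 (0.001). Library totals shifted the median of all genes by 0.0796 against WT and 0.0675 against C185Gneo. Genes of few counts, such as Eef1a2, are limited by depth. Correlations of the deviations of same-numbered libraries ran from -0.126 to 0.182. Differently numbered libraries were not compared, so whether replicate numbers pair the samples cannot be told. With the replicate block, 43 genes were higher and 3 lower against WT, 41 and 4 against C185Gneo and none in C185Gneo against WT; it added Eef2 (adjusted p = 0.0466) and Eif1b (0.0327) against WT and Eef2k (0.0242) and Eif1b (0.042) against C185Gneo, and Eif5a2 against C185Gneo was not called (0.0605).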
